A study of Mus musculus with 4 samples.

Results

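Myc encodes the transcription factor MYC, and the peaks described here are the YAP binding sites in the 3 Mb of mouse chromosome 15 that hold Myc and the gene desert around it. A peak was a member when its summit, its highest point, lay between positions 60000000 and 63000000 of the build mm10. Of the 36576 peaks of the wild-type (WT) list, 46 were members, and of the 14879 peaks of the knockout (KO) list, 24. YAP binding had been measured by ChIP-seq, the sequencing of DNA precipitated with an anti-YAP antibody, in epidermis of adult mice aged 18 to 25 weeks. The mice were killed at Zeitgeber time 4 (ZT4), which is 4 hours into the light phase. The animals were Bmal1 WT or Bmal1 KO. The labels also write Bmal1cKO, but the sources used here do not give the driver of the deletion or the cells it reached. Bmal1 (Arntl) encodes an activator of the circadian clock. Each genotype had 1 pooled peak list, so values carry no replicate error and no test between genotypes was possible. Peak lists hold no expression values, so neither Myc transcript levels nor the tissue label could be checked.

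MYC pairs with MAX, binds E-box sequences and raises transcription of genes for growth, ribosome production and cell division. In epidermis it acts in basal keratinocytes, and sustained MYC activity drives stem cells out of their niche and towards differentiation. Myc is known for control by enhancers scattered through the gene-poor DNA on both sides of it, which differ between tissues. YAP does not bind DNA itself but joins TEAD proteins, and most YAP and TEAD sites lie at enhancers far from promoters, often together with AP-1 factors. Which gene a distant site serves cannot be read from its position, and contacts between sites and Myc were not measured here.

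YAP was bound at many places around Myc, but the strong sites were distant ones. In WT, 2 weak peaks lay inside Myc and 3 more within 10 kb of it, whereas the tallest peak of the interval lay 366 kb away. In KO, no peak was called within 10 kb of Myc, and in the whole list too weak WT peaks seldom overlapped a KO peak. The 24 KO peaks that remained in the interval all overlapped WT peaks, as did 99.0% of all KO peaks. Taller WT sites were also the taller KO sites. Each shared site had fewer reads in KO, as had 99.5% of shared WT peaks in the whole list.

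Of the 46 WT peaks, 23 were kept, which here means an overlap of at least 1 bp with a KO peak. That is 50.0% (exact Clopper-Pearson 95% interval 34.9 to 65.1, counting error only), beside 39.1% of all WT peaks and 40.3% of the 1658 WT peaks of chromosome 15. All 24 KO peaks overlapped a WT peak (lower bound 85.8%), beside 99% of all KO peaks. The interval therefore had 1.92 WT peaks for each KO peak, against 2.46 in the whole lists. The interval of the kept share includes the value for all WT peaks.

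The height of a peak is given below as reads at its summit. These reads are whole numbers of ChIP reads that were recovered from the fold and p-value of the authors' lists, with an even-spread background of 9.63 reads in both lists. WT members had between 33 and 264 reads, with a median of 66, and KO members between 38 and 199, with a median of 53. The whole lists had medians of 61 and 52. In WT, 12 members (26.1%) reached 100 reads, against 16.7% of all WT peaks. In KO, 2 of the 24 members reached it. The next KO member, with 82 reads, was 1998th by reads of all 14879 KO peaks. Fewer than 1998 KO peaks of the whole list thus reached 100 reads.

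**Figure D1:**
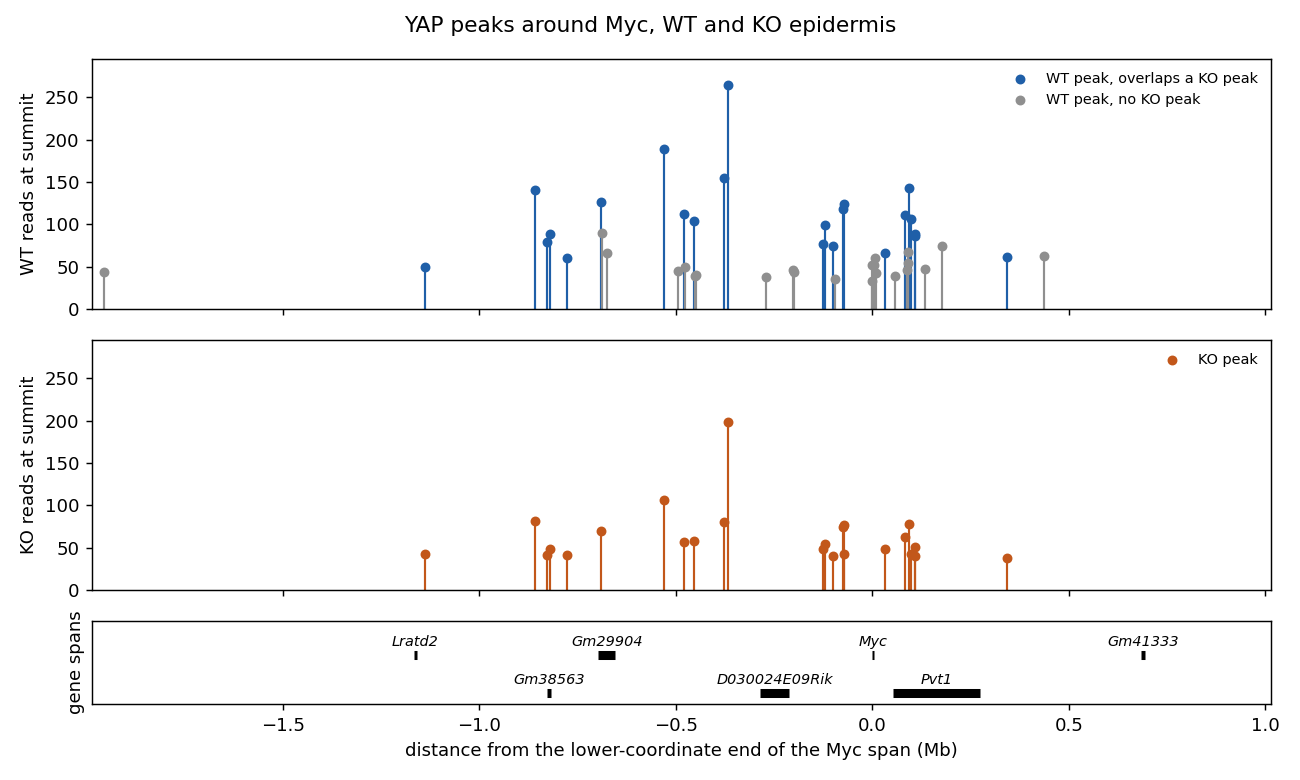
Reads at the summit of each YAP peak (vertical axes) in WT (top) and KO (middle) against the distance from the lower-coordinate end of Myc in Mb, with gene spans below. The tallest peak in both panels, with 264 WT and 199 KO reads, lies 366 kb to the left of Myc, and grey WT peaks have no KO peak.

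Myc spans 61985341 to 61990361. It is transcribed towards higher coordinates, which is background knowledge because the gene table gives no strand, so the lower-coordinate side is upstream. Upstream lay 28 WT peaks, 16 of them kept. Downstream lay 16, with 7 kept. The downstream side held 34.8% of WT peaks on 33.7% of the length. That likeness depends on the long, nearly empty stretch far upstream. With equal lengths taken on both sides, the downstream side held 36.4% of the WT peaks, fewer than the upstream side.

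Along the interval the peaks were uneven. From the third WT peak to the last, 44 WT peaks lay within 1.29 Mb. Beyond the last one, 431 kb downstream of Myc, no WT peak followed in the remaining 578 kb. Upstream, 2 isolated peaks lay beyond 1 Mb from Myc, separated by 816 kb. The farther had 44 WT reads and no KO peak, and the nearer, 1139 kb away, had 50 WT and 43 KO reads. The interval averaged 15.3 WT and 8 KO peaks per Mb.

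The interval is gene-poor, with 4 protein-coding genes: 4933412E24Rik, Lratd2, A1bg and Myc. Among 848 consecutive windows of 3 Mb, the median window held 34.5 WT peaks (interquartile range 13 to 63) and 14 KO peaks (4 to 26). Among the 100 windows with at most 4 coding genes, the medians were 2.5 WT peaks and 1 KO peak. Of those 100, the Myc interval had the most WT and the most KO peaks, with 44 WT peaks in the next WT window and 21 KO peaks in the next KO window. This order is a description, since the interval was chosen with these peaks known.

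At the gene itself, YAP peaks were weak. The peak over the upstream part of Myc, from 61985594 to 61985941, had 33 WT reads, the fewest of all members. A second peak inside the span, from 61988822 to 61989311, had 52. Upstream, a peak 1.71 kb from the span had 52 reads. Downstream, peaks at 1.73 and 3.94 kb had 60 and 42 reads. These 5 peaks formed a group of 11.0 kb, and none of them overlapped a KO peak (0 of 5, upper bound 52.2%).

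In the whole list, WT peaks of this height were kept less often than the 39.1% of all WT peaks. Over all WT peaks, 1.27% were kept below 40 reads, 3.82% from 40 to 49, 13.4% from 50 to 59 and 31.8% from 60 to 69. Applied to the 5 peaks at Myc, these shares sum to 0.637 kept peaks. The observed number was 0. A site without a KO call need not have 0 reads in KO, and its KO reads are not known. The lowest summit called anywhere in the KO list had 29.

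The caller's background at these 5 summits was 11.5 to 14.4 reads, with a median of 13.0, against a median of 10.1 at the other 41 WT members. The median was 11.2 over all WT peaks and 11.5 over the 9953 WT peaks within 2 kb of an end of a coding gene. The part of this background in the absence of KO calls at Myc was not tested.

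**Figure D2:**
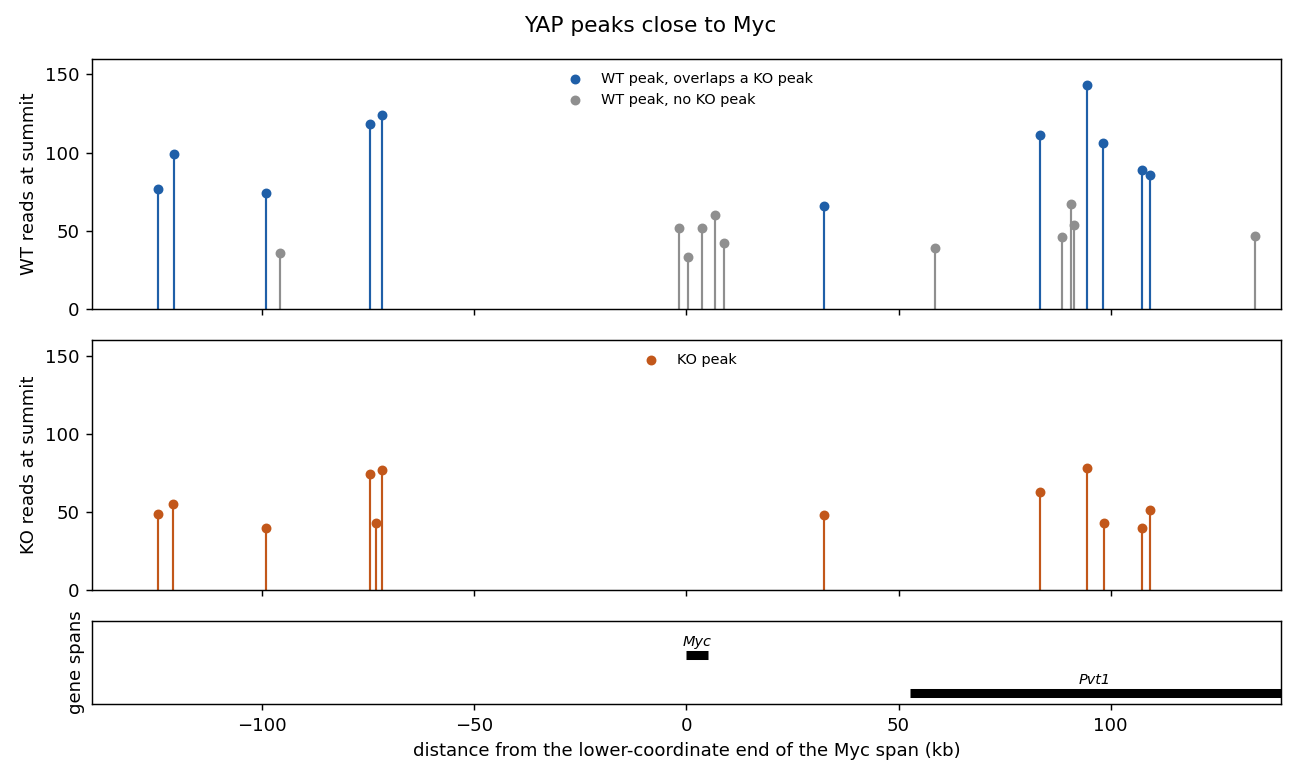
Reads at the summit of each YAP peak (vertical axes) in WT (top) and KO (middle) against the distance from the lower-coordinate end of Myc in kb, with the spans of Myc and Pvt1 below. The 5 WT peaks at Myc have 33 to 60 reads and no KO peak, and taller WT peaks with KO peaks stand on both sides.

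The stretch around Myc without a KO summit was 104 kb long. On its upstream edge lay a pair of strong peaks, 74.6 and 71.7 kb from Myc. The first, from 61910399 to 61912464, was the widest WT member, at 2066 bp, and had 118 WT reads. In KO it was covered by 2 separate peaks, the taller with 74 reads. The second, from 61913340 to 61914246, had 124 WT and 77 KO reads. Above background, their log2 KO to WT ratios were -0.75 and -0.76, which are nearly equal.

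Farther upstream within 100 kb, a peak from 61886114 to 61886646, 98.9 kb away, had 74 WT and 40 KO reads. Its neighbour at 95.7 kb had 36 WT reads and no KO peak. The taller of this pair was the kept one.

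On the downstream edge, 27.4 kb from Myc, the peak from 62017532 to 62017937 had 66 WT and 48 KO reads. It was the kept peak nearest to Myc. Its KO to WT ratio of reads, 0.727, had a counting interval from 0.491 to 1.07, which includes equal reads.

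Pvt1, a long noncoding RNA gene of 222 kb that lies downstream of Myc, held 11 of the WT peaks, and 5 of these were kept. The gene is known for enhancers within it that act on Myc, and for its own promoter. Its first WT peak, 53.5 kb from Myc, had 39 reads and no KO peak. The next 8 WT peaks formed the group with the most peaks, from 62068431 to 62094908, a stretch of 26.5 kb. In map order they had 111, 46, 67, 54, 143, 106, 89 and 86 WT reads. The peaks of 46, 67 and 54 reads had no KO peak, and the others had 63, 78, 43, 40 and 51 KO reads. The 5 taller peaks were thus the kept ones.

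The tallest peak of this group, from 62079194 to 62080183 and 89.5 kb from Myc, had 143 WT and 78 KO reads. The next peak, 93.2 kb from Myc, from 62083237 to 62083979, had 106 WT and 43 KO reads. With a log2 ratio of -1.53 it was the most reduced of the 23 kept members. Its KO summit lay 195 bp from its WT summit, the largest shift among them, against a median shift of 47 bp. The peak at 102 kb, with 89 WT and 40 KO reads, had the next lowest ratio, -1.39. Deeper in Pvt1, peaks at 129 and 172 kb had 47 and 74 WT reads and no KO peak.

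Downstream of Pvt1, 2 WT peaks remained. The peak 338 kb from Myc had 61 WT and 38 KO reads, the latter the fewest of the KO members. The peak at 431 kb had 63 WT reads and no KO peak.

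The upstream desert held the strongest sites. The peak from 61618682 to 61619756, 366 kb from Myc and outside every gene span of the table, had 264 WT reads and 199 KO reads. It was 9th in the WT list by the authors' score and 13th by reads. In the KO list it was 15th by score, and 7 KO peaks had more reads. Its WT and KO summits lay 1 bp apart. The next strongest members, in either list, were the 189 WT and 106 KO reads of the peak 531 kb away.

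Few WT peaks of any height lay so far from genes. Of the 36 WT peaks with at least 250 reads, this site was the only one more than 100 kb from a protein-coding gene. Of all WT peaks, 6.80% lay that far, and so small a count was not tested against that share. Over the genome, 584 of the 36576 WT peaks lay more than 300 kb from a coding gene. They had a median of 60 reads, and the tallest after this site had 222. This site held 7.84% of the WT reads above background summed over the members, and 14.6% of the KO reads. These sums depend on how many peaks were called, which cover 29.3 kb in WT and 13.1 kb in KO.

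Its KO to WT ratio above background was 0.744, a log2 value of -0.43. The median log2 ratio of the 36 kept WT peaks with at least 250 reads was -0.54 (interquartile range -0.69 to -0.45), and 6 of them were less reduced. The site was therefore among the less reduced of the tallest sites, though not outside their range, which ran from -0.87 to -0.28.

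A second tall peak stood beside it, 377 kb from Myc, from 61608080 to 61610114, with 155 WT and 80 KO reads. At 2035 bp it was the second widest WT member, and its KO peak was 845 bp wide. Its log2 ratio was -1.05, lower than that of its neighbour. The counting intervals of their raw ratios, 0.624 to 0.910 for the taller and 0.389 to 0.680 for the other, overlap, and the difference was not tested.

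**Figure D3:**
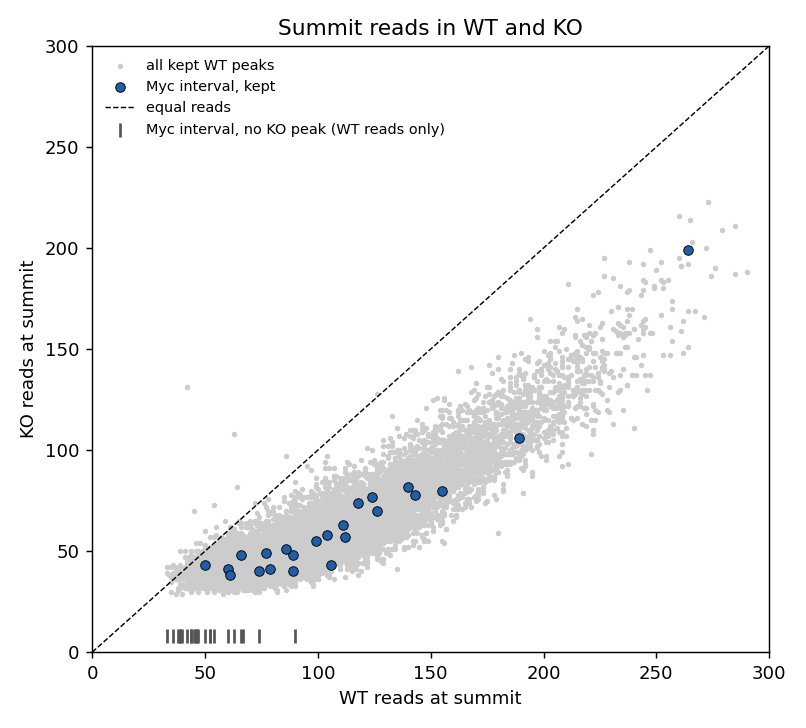
KO reads against WT reads at the summits of kept WT peaks, for all kept peaks (grey) and the 23 of the Myc interval (blue); ticks at the bottom mark WT reads of the 23 members without a KO peak. All 23 blue points lie under the line of equal reads, within the grey cloud, and the ticks end at 90 WT reads.

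Between 449 and 691 kb upstream, strong peaks alternated with weak ones. The peak 531 kb away, from 61453681 to 61454616, had 189 WT and 106 KO reads, with a background of 16.4 and 16.6 reads, the highest among members. The peak at 479 kb had 112 WT and 57 KO reads, and the peak at 453 kb 104 and 58. Beside these, peaks of 50, 39, 40 and 45 WT reads had no KO peak. The peak at 691 kb, in the noncoding gene Gm29904, had 126 WT and 70 KO reads. Its 2 neighbours in that gene, at 687 and 676 kb, had 90 and 66 WT reads and no KO peak.

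The peak of 90 WT reads, from 61297374 to 61298378, was the tallest member without a KO call. Over all WT peaks, 80.7% from 80 to 99 reads were kept. The other WT-only peaks with most reads had 74 reads at 172 kb in Pvt1, 67 reads at 85.6 kb in Pvt1, and 66 reads at 676 kb in Gm29904.

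Near the far end of this series, the peak at 858 kb, from 61127049 to 61127764, had 140 WT and 82 KO reads. In the noncoding gene Gm38563, peaks at 827 and 819 kb had 79 and 89 WT reads and 41 and 48 KO reads. Both WT peaks of that gene were thus kept. The peak at 778 kb had 60 WT and 41 KO reads.

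Closer to Myc, D030024E09Rik, a noncoding gene of 75.2 kb upstream of Myc, held 1 WT peak, of 38 reads, with no KO peak. Peaks at 203 and 198 kb had 46 and 44 WT reads and no KO peak either. A kept pair followed, at 124.6 kb with 77 WT and 49 KO reads and at 121 kb with 99 and 55.

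By distance, then, the kept share did not fall away from Myc. It was 0 of 5 within 10 kb, 7 of 12 from 10 to 100 kb, 4 of 8 from 100 to 250 kb, 5 of 11 from 250 to 500 kb, 6 of 8 from 500 to 1000 kb and 1 of 2 beyond. The median WT reads were 42.5 inside Myc and 52 within 10 kb of it, and 70.5, 75.5, 61, 89.5 and 47 in the bands farther out.

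Taller members were kept more often, as in the whole list. All 12 members with at least 100 WT reads were kept, beside 98.6% of all such WT peaks. From 60 to 79 reads, 6 of 11 members were kept, beside 41.0%. Below 60 reads, 1 of 18 was kept, beside 7.14%. The whole-list shares in bins of reads sum to 21.3 kept members, and 23 were kept. The median was 104 WT reads for kept members and 46 for the others.

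**Figure D4:**
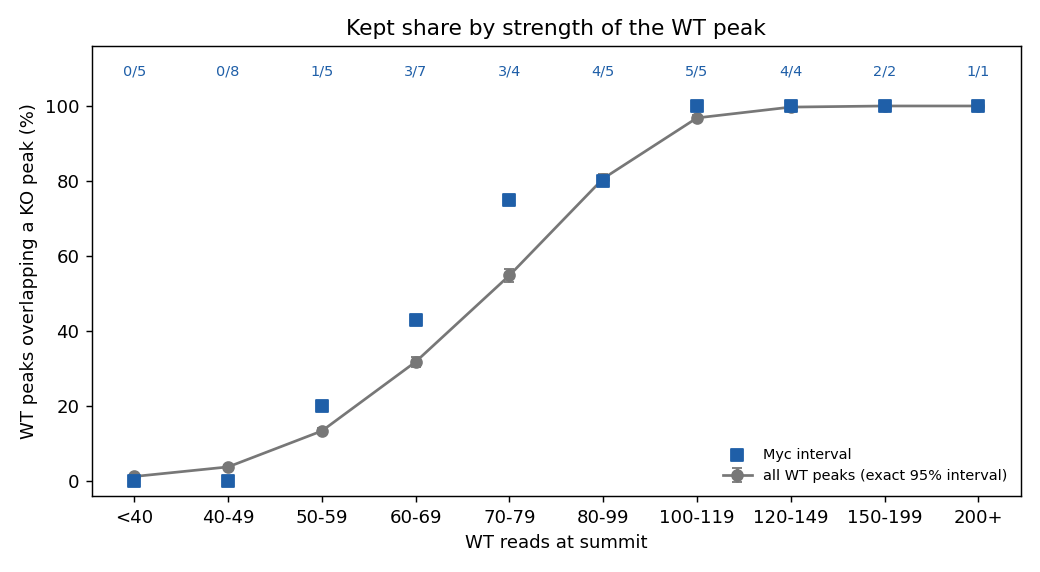
Percent of WT peaks that overlap a KO peak (vertical axis) by WT reads at the summit (horizontal axis), for all WT peaks (grey, with exact 95% intervals) and the Myc interval (blue squares, with kept and total numbers above). The blue squares rise with the grey line, from 0 of 5 below 40 reads to 12 of 12 from 100 reads.

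Reads were fewer in KO than in WT at 23 of the 23 kept members. The median log2 KO to WT ratio above background was -0.93, ranging from -1.53 to -0.27, with an interquartile range of -1.05 to -0.77. All kept WT peaks had a median of -0.88 and an interquartile range of -1.07 to -0.69, and 99.5% of them had fewer reads in KO. The exact interval of the members' median, -1.05 to -0.77, holds the median of all kept peaks; it treats sites as independent, though they share both pools.

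For the 12 kept members with at least 100 WT reads the median was -0.94, beside -0.92 for all 6031 such peaks. The highest ratio, -0.27, was at the peak of 50 WT and 43 KO reads 1139 kb upstream. A weak WT peak can be kept only if its KO reads are also high enough to be called, so the lowest ratios cannot appear among weak kept peaks.

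Single sites were measured with little precision. The counting interval of the raw KO to WT ratio lay below 1 at 20 of 23 kept members. At 21 of 23 it included 0.591, the median of all kept WT peaks. The exceptions were the tallest site, with 0.754 (0.624 to 0.910), and the Pvt1 site 93.2 kb from Myc, with 0.406 (0.278 to 0.583). Among the 375 kept WT peaks with at least 200 reads, however, the median raw ratio was 0.63. The interval of the tallest site includes that value. The Pvt1 site had 106 WT reads. Kept WT peaks with at least 100 and fewer than 120 reads had a median log2 ratio above background of -0.98. Their interquartile range was -1.17 to -0.80, and the Pvt1 site, at -1.53, lay below it. Whether its counting interval includes the median raw ratio of those peaks was not tested. The counting intervals cover counting error in 1 pool each and not the spread between animals.

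By side of Myc, the median log2 ratio was -0.92 at the 16 upstream and -0.93 at the 7 downstream kept members. Inside Pvt1 it was -0.96 over 5. WT and KO reads at the 23 kept members had a Spearman correlation of 0.895, and 0.880 without the tallest site. It was 0.854 over all kept WT peaks. These points share the same 2 pools and the same DNA, so the values are descriptions.

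**Figure D5:**
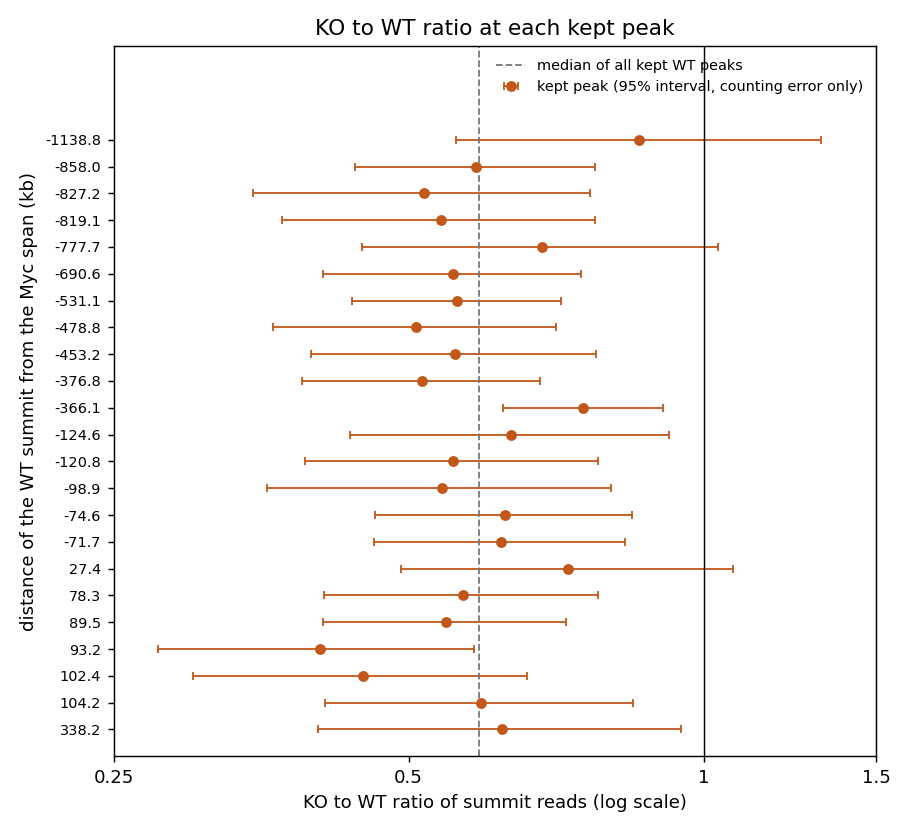
KO to WT ratio of summit reads (horizontal log axis) at each of the 23 kept members, in map order by distance from Myc in kb (negative is upstream), with 95% intervals for counting error. The intervals at -366.1 and 93.2 kb lie on either side of the dashed line, the median of all kept WT peaks, and the other 21 cross it.

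Of the 26 gene spans of the RefSeq table that touch the interval, 5 held a WT summit: Gm38563, Gm29904, D030024E09Rik, Myc and Pvt1. No WT summit lay in the other 21, which are the coding genes 4933412E24Rik, Lratd2 and A1bg, the noncoding genes Gm41331, 9930014A18Rik, 4930402D18Rik, Gm41333 and Gm30113, the small RNA genes Gm25875, Gm23835, Gm24696 and Gm22521, and the pseudogenes Gm46507, Gm4774, Gm17892, Gm6392, Gm7086, Gm18154, Gm18788, Macroh2a3 and Tsg101-ps.

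By position, Myc was the nearest protein-coding gene for 37 of the 46 WT members, 17 of them kept. A1bg was nearest for 7, and Lratd2 and 4933412E24Rik for 1 each. Within 100 kb, 17 WT peaks lay at Myc, 7 of them kept. More than 100 kb from any coding gene lay 27 members (58.7%), against 6.80% of all WT peaks. The interval was chosen as Myc and its gene desert, so a high share comes with that choice. Sites that far from genes were kept in 41.3% of 2488 cases over the genome.

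Partners, regulators and targets of MYC also carried YAP peaks. Of 40 such genes, 29 (72.5%) had a WT peak within 100 kb that was nearest to them, beside 52.1% of all protein-coding genes, and 18 had a KO peak, beside 29.7%. The 40 genes had 73 WT peaks, and 29 of these (39.7%) were kept, beside 39.0% of all WT peaks linked to coding genes. By list, the kept share was 12 of 32 peaks (37.5%) in the dimer network, 11 of 18 (61.1%) at cofactors and genes of turnover, and 6 of 23 (26.1%) at targets. A single gene, Fbxw7, supplied 7 of these 18 peaks and 5 of the 11 kept ones. A kept peak was linked to 29.5% of all coding genes, the value beside which the counts of genes with a kept peak below stand. The lists were chosen with earlier results of these data known, and no test was made of them.

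In the dimer network, the proteins that pair with MAX or its relative MLX, 9 of 12 genes had a WT peak and 6 (50.0%) a kept one. Mnt, a repressor that competes with MYC for MAX, had 171 WT and 80 KO reads at a peak inside the gene. The repressor genes Mxi1, Mxd1 and Mxd4 had 98 and 63, 92 and 47, and 91 and 50 reads at their tallest peaks. Max had 9 WT peaks, 2 of them kept. No peak was linked to Mycn, the MYC relative of neural tissue.

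Among cofactors and genes of MYC turnover, 8 of 12 had a WT peak and 7 (58.3%) a kept one. Fbxw7, which marks MYC for degradation, had 133 WT and 62 KO reads. Ruvbl2, a helicase of chromatin complexes, had 130 and 70, and Zbtb17, the MYC partner MIZ1, had 129 and 63. Skp2, a ubiquitin ligase subunit, had 96 and 63. Among MYC targets, 12 of 16 had a WT peak and 5 (31.2%) a kept one, close to the share of all coding genes. The tallest were linked to Nme1 (126 and 57 reads), Ncl (115 and 77), Cdk4 (78 and 42) and Hk2 (74 and 57). These genes encode a nucleoside diphosphate kinase, nucleolin, a cyclin-dependent kinase and a hexokinase. The Ncl peak lay 16853 bp from the gene span. Those of Nme1 and Cdk4 lay 119 and 242 bp from theirs, and that of Hk2 lay inside the gene.

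Some promoters of these genes held both a YAP summit and an E-box, at different bases. The RefSeq promoter table of GRCm38.p6, the build called mm10, held 34 of the 40 genes, and 7 of these had a WT summit within the 250 bases before a transcription start. Printed are the 3 of the 7 with a searched motif, 5′ to 3′ on the strand of the gene. Capitals mark the E-box CACGTG and, in Nme1 only, the AP-1 site TGANTCA. The TEAD core GGAATG, searched in the same way on both strands, was in none of the 3.
Mxd4: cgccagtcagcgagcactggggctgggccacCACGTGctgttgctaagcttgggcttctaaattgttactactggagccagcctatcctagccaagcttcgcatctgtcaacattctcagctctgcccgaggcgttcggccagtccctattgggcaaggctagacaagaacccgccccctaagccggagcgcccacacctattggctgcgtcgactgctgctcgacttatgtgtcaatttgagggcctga
Nme1: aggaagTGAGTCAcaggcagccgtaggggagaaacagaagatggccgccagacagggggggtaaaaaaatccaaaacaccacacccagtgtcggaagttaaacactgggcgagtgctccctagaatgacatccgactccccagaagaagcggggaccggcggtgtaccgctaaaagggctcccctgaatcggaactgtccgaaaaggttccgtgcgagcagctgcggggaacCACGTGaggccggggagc
Cdk4: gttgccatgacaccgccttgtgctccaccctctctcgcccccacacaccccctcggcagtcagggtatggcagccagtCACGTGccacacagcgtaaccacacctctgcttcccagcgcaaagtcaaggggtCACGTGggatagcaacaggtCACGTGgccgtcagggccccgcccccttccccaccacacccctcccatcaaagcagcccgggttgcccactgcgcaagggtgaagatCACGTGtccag

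These stretches are chr5:34187711-34187960 on the minus strand, chr11:93968273-93968522 on the minus strand and chr10:127063285-127063534 on the plus strand. The WT summits lay 58, 119 and 242 bases before the start, with 86, 126 and 78 WT reads and 48, 57 and 42 KO reads. Cdk4 held 4 copies of CACGTG and the other two 1 each. The E-box is the sequence of MYC and MAX and also of BMAL1 with CLOCK. It was in 6.06% of 32585 promoters of this length and in 10.6% of the 3366 with a WT summit. The AP-1 site was in 6.78% and 6.06%, and the TEAD core in 12.6% and 14.7%. A match of letters is not a measured binding site.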

How the data were processed

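The members and gene lists were chosen with earlier results of these data known. Per the submitters' processing notes, the build was mm10 and MACS2 2.1.1, SAMtools 1.5 and Trimmomatic 0.36 were used, with no roles stated. No source used here names the aligner, controls or filters, or what was pooled. The 2 inputs have no file used here. The authors' lists give a score (10 times the −log10 q, truncated), a fold (a ratio of signal to background) and −log10 p and q of each summit. In both lists the lowest −log10 q lies just above 2, a q-value of 0.01.

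Reads at summits were solved from the deposited fold and −log10 p with 1 scaling of ChIP reads per list, found in the search (0.694 in WT, 0.842 in KO). A whole number matched within 0.002 for 100% of peaks, and for 0.935% and 0.397% with the scaling 3% off. In ChIP reads, the lowest background was then 9.63 in both lists, which is why reads are set side by side; before scaling back it was 6.68 in WT and 8.10 in KO. The depth of each pool is not known beyond the 25 to 50 M reads per sample of the labels. The solver was tested on simulated data. Ratios used the overlapping KO peak with most reads, after subtracting the background. Peaks were joined into groups when summits lay within 12.5 kb. Gene spans came from RefSeq GRCm38.p6.

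Named were all genes whose span touches the interval, peaks within 100 kb of Myc, the nearest on each side, the 8 tallest, the 4 tallest WT-only, those with extreme ratios, and the 4 largest groups. Of each list, the 4 genes with the tallest peaks were named. Other members were named after their values were seen. Tools were Python 3.11.15, pandas 2.3.3 and SciPy 1.17.1.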

Additional observations from a re-analysis of the deposited data

How the results depend on the processing

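Of 28 alternatives of the main results, 21 stayed within the reported value's exact interval or, for densities, counts and ratios, within a factor of 1.5. The kept share of WT members was 87.5% with only as many top-scoring WT peaks as the KO list has, a choice that leaves out low WT peaks. Tall WT peaks were mostly kept in the whole list too, 91.1% of those with at least 80 reads. The share over all WT peaks under this choice is not given here. In the other alternatives, the kept share of members lay between 44.4% and 56.1%. The WT to KO ratio of peak numbers was 3.14 at a fold of at least 6 in both lists, with no whole-list ratio at that fold beside it. The interval includes long empty stretches: within 500 kb of Myc the density was 35.8 WT and 16.9 KO peaks per Mb, and from the first to the last shared peak 29.7 WT peaks per Mb. The median log2 ratio of kept members was -0.68 with the authors' fold, and the same median over all kept WT peaks is not given here. The cause was not tested. MYC network genes with a WT peak were 42.5% with these top-scoring WT peaks, beside 30.6% of all coding genes. With 50% reciprocal overlap, 2 kept members lost their call, the 2 widest, from 61608080 to 61610114 and from 61910399 to 61912464. The stretch between shared peaks, the KO peak of largest overlap and the omission of the 5 peaks at Myc were added after seeing the data. A WT member without a KO call has no KO value, and an effect of depth on such calls was not tested. No paired analysis was possible because WT and KO have a single pool each.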

Other observations

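Few coding genes gathered as many WT peaks by nearest position as Myc. It had 37, and 6 of the 11403 genes with such a peak had more, against a median of 2. Counting only peaks within 100 kb, Myc had 17. Of the 11272 genes with such a peak, 84 had more, against a median of 2. Its place was thus lower, though still high, when peaks farther out were left out. The member that 2 KO peaks covered, 74.6 kb upstream, was 1 of 424 such WT peaks, 2.96% of all kept ones.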
